A study of Mus musculus with 6 samples.

Results

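The DNA replication machinery comprises 56 genes, chosen by name for their textbook roles from the 24015 gene symbols in the count files. The choice was made with earlier results of these data known. All 56 carried enough reads to be among the 12939 genes tested. RNA sequencing counts were available for 6 libraries of DN3 thymocytes, the immature T cells without surface CD4 or CD8 that express CD25 and little CD44. Control libraries (2) came from mice labelled wild type, and p45-deficient libraries (2) from p45-/- mice, which lack the long isoforms of the transcription factor Tcf1. Tcf1-deficient libraries (2) came from Lck-cre+ Tcf1 fl/fl mice, in which a Cre expressed in the T lineage is meant to ablate all Tcf1 proteins. The labels give no age and do not state whether the controls carry Lck-cre. They also leave unstated whether paired libraries represent different mice. A p-value here sets the difference between genotypes against the scatter of libraries within a genotype, which may be technical.

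Before a cell can copy its DNA, the origin recognition complex, Cdc6 and Cdt1 load the Mcm2 to Mcm7 ring at replication origins, a step called licensing. At the start of S phase the kinase Cdc7 with Dbf4, together with cyclin E kinase activity, converts the ring into the active helicase with Cdc45 and the GINS complex, and polymerases, the sliding clamp Pcna and its loaders, the single-strand binding protein RPA and a supply of deoxynucleotides then carry synthesis forward. Many of these genes are transcribed under the control of E2F factors. In the thymus, DN3 cells that have made a working T cell receptor beta chain enter a burst of division, whereas DN3 cells still rearranging the locus divide little.

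Library totals ran from 19640524 to 28107031 counts, so that 3 counts corresponded to between 0.110 and 0.145 CPM, the unit used below, in which reads are scaled to library size with TMM factors. Tcf7, which encodes Tcf1, stood between 1810.1 and 2414 CPM in control and p45-deficient libraries, and at 979 and 976 CPM in the Tcf1-deficient ones. A total per gene separates neither its isoforms nor its exons, so it does not check the p45 label. It also does not show whether the Tcf7 reads in Tcf1-deficient libraries come from a deleted or an intact allele. The 16 DN3 marker genes summed to between 9609.8 and 13078 CPM in every library, lowest in Tcf1-deficient replicate 1. By edgeR at an adjusted p below 0.05, 1 of the 16 was higher and 0 lower in p45-deficient cells than in control. In Tcf1-deficient against p45-deficient cells 1 was higher and 3 lower. Shares over all tested genes are given with each comparison below. Of 8 red cell markers 5, the globin genes among them, had no count in any library. Tcf1-deficient replicate 1 stood apart in some genes, with 372 CPM of Cd4 against 46.1 to 86.5 CPM in the other 5 libraries. It had 41.0 CPM of Cd44 against 4.70 to 7.94 CPM, and 164 CPM over 9 natural killer genes against 30.3 to 66.6 CPM. Over 18 dendritic and myeloid genes it had 194 CPM against 43.7 to 156 CPM. Cd4 and Cd44 are single genes of the double-positive and progenitor lists below. Those lists summed to 1169.6 and 109.8 CPM in that library, against 1000.1 to 1127.5 and 36.2 to 126 CPM in the others.

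In p45-deficient cells the replication genes lay above control with few exceptions. Of the 56 genes 24 rose and none fell by edgeR's quasi-likelihood test (adjusted p below 0.05), where 8.47% of all tested genes rose and 7.55% fell. The rise was modest, with a median log2 fold change of 0.528 over the 56 genes, a 1.44-fold difference, beside 0.0462 over all tested genes, and 5 genes reached a 2-fold rise. The largest rises belonged to Gmnn, the inhibitor of licensing (2.33-fold), and to the cyclin E genes Ccne1 (2.21-fold) and Ccne2 (2.07-fold), while the licensing factor Cdt1 and the transcription factor E2f1 differed from control by 1.01-fold and 1.02-fold and were not called. In bulk RNA, a larger share of cells in S phase and more transcript in each such cell cannot be told apart.

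Both p45-deficient libraries exceeded both controls for 47 of the 56 genes, against 37.9% of all tested genes, and lay below both for 1 gene, against 31.3%. For 44 of the 56 genes (78.6%) they also exceeded all 4 other libraries, as they did for 27.4% of all tested genes. The 32 genes not called were Orc1 to Orc5, Cdt1, Mcm2 to Mcm7, Gins4, Cdc7, Pola2, Prim2, Pold1, Pold2, Pold3, Pole, Pcna, Rfc1, Rfc2, Rfc3, Rfc5, Lig1, Chaf1a, Chaf1b, Uhrf1, E2f1, E2f2 and E2f8. No replication gene fell at an unadjusted p below 0.05 or by DESeq2, which called 27 higher, all 24 above among them. Of all tested genes, 1096 were called higher and 977 lower. This split moved with the scaling, to 721 and 1281 with library totals and 820 and 1175 with upper-quartile factors, and the median log2 fold change over all genes moved from 0.0462 to −0.0599 with library totals. The replication genes kept a positive median under these scalings, with 19 higher and none lower under each. Genes with small differences have no firm direction. Fold changes were positive for 54 genes here and for 51 under either of those scalings.

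**Figure D1:**
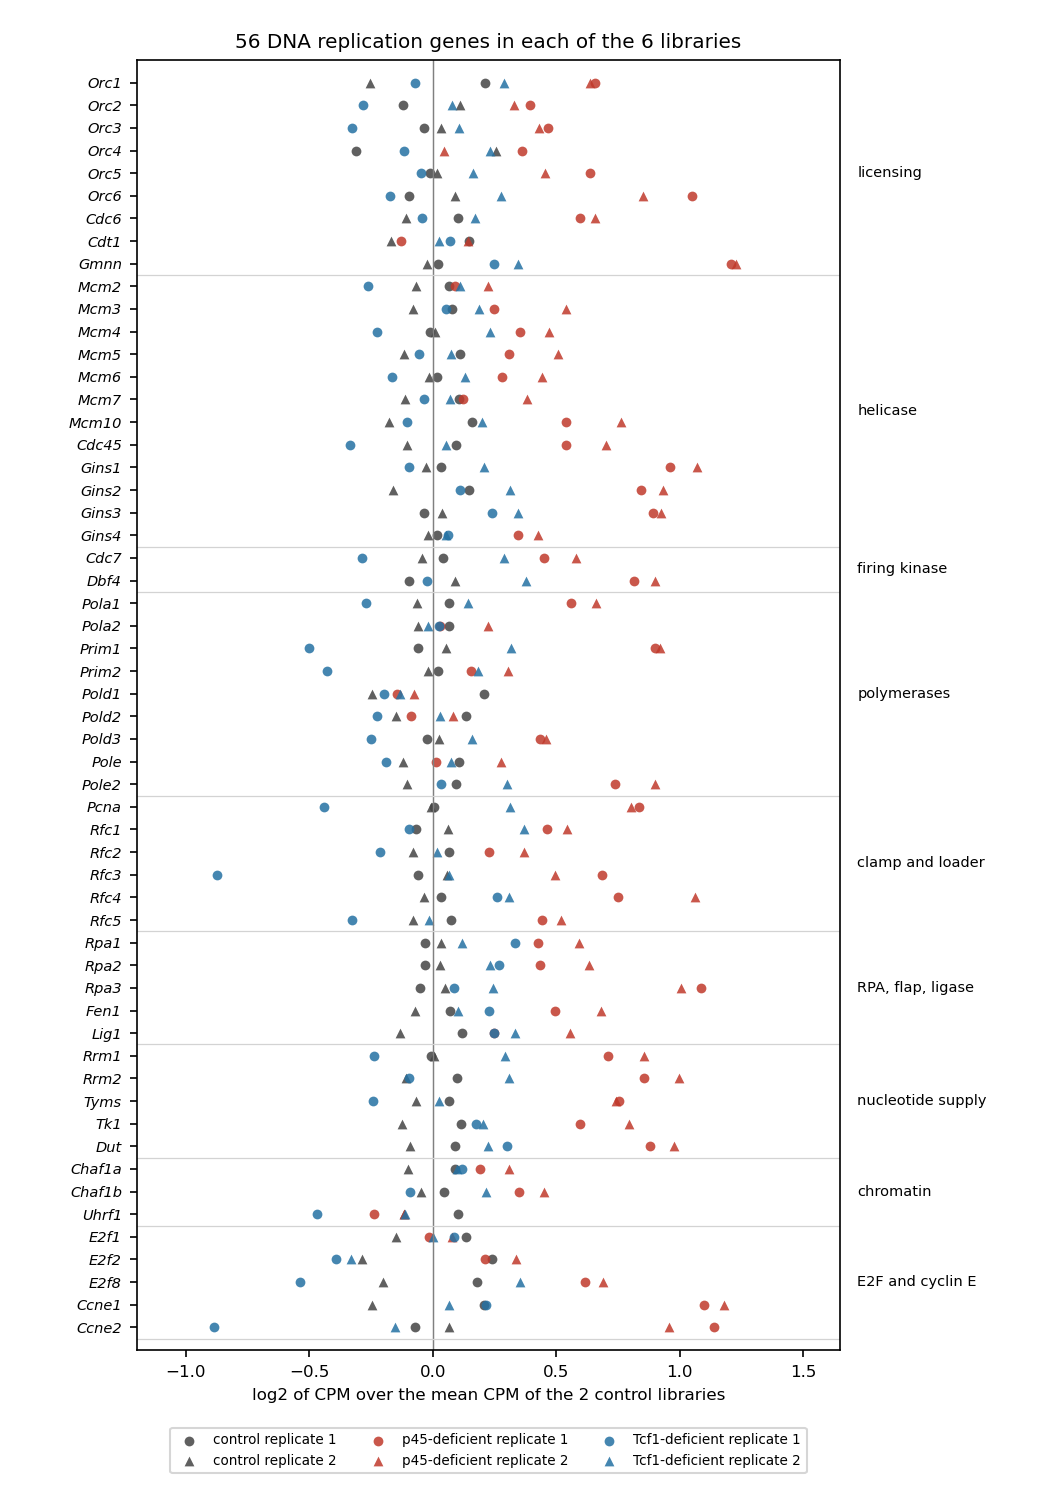
Each row is 1 replication gene, grouped by role, and each point is 1 library, plotted as log2 of its CPM over the mean CPM of the 2 controls (grey control, red p45-deficient, blue Tcf1-deficient; circle replicate 1, triangle replicate 2). The red points lie to the right of all others for 44 of the 56 genes, and the blue and grey points overlap for 42 genes.

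The calls depended on single libraries, since each group holds only 2. The number of calls over all tested genes moved with single libraries as well, so these counts do not describe the replication genes alone. With control replicate 1 left out, 5 of the 24 genes were called higher, and with control replicate 2 left out, 3. Omitting p45-deficient replicate 1 left 3, and omitting p45-deficient replicate 2 left 2. The Tcf1-deficient libraries are in neither group of this comparison but enter the shared estimate of spread, the scaling and the filter. Omitting replicate 1 of that genotype gave 38 genes and omitting replicate 2 gave 41, all 24 among them each time. None was called lower in any of these 6 fits, and the median log2 fold change stayed between 0.453 and 0.576. Gmnn was called in all 6 fits, and Rpa3 and Dut in 5 of 6. By role, the number called higher ran from 1 to 7 for licensing, 0 to 10 for the helicase, 0 to 2 for the firing kinase, 0 to 4 for the polymerases, 0 to 5 for clamp and loader, 0 to 4 for RPA, Fen1 and Lig1, 0 to 5 for nucleotide supply, 0 or 1 for chromatin and 0 to 3 for E2F and cyclin E genes.

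**Figure D2:**
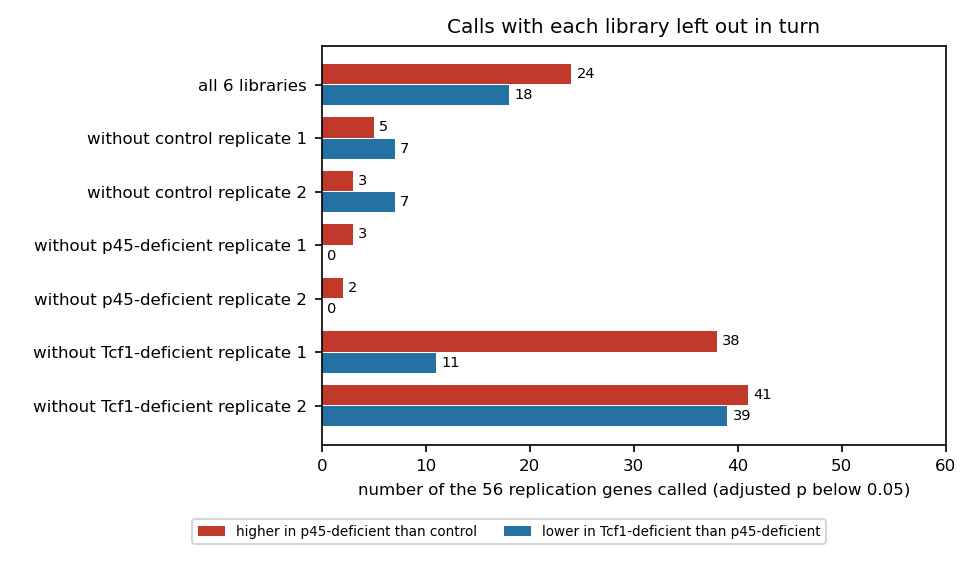
Bars count the replication genes called at an adjusted p below 0.05 with all 6 libraries and with each library left out (red, higher in p45-deficient than in control; blue, lower in Tcf1-deficient than in p45-deficient). The red count of 24 drops to between 2 and 5 if a library of either compared genotype is omitted, and reaches 38 or 41 if a Tcf1-deficient one is.

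Markers of other cell states were compared in the same way. Of all tested genes, 8.47% were called higher and 7.55% lower in p45-deficient cells than in control. Over 13 genes of earlier DN1 and DN2 progenitors the controls summed to 123 and 126 CPM, the p45-deficient libraries to 36.2 and 37.9 CPM and the Tcf1-deficient libraries to 109.8 and 117 CPM, and 5 of 12 tested genes were called lower and 1 higher in p45-deficient cells. Over 7 gamma-delta genes the sums in the same order were 330.2 to 362, 611 to 685 and 409.8 to 518 CPM, and 3 of 6 tested genes were called higher in p45-deficient cells. In p45-deficient cells 1 of 12 markers of beta-selected cells was called higher (8.33%), near the share of all tested genes. Over these 12 the sums were 1158 to 1428, 1475 to 1476 and 1431 to 1865 CPM in the same order. Over 12 immediate-early and heat-shock genes they were 620.3 and 3433 CPM in the 2 controls, 287 to 290.2 CPM in p45-deficient and 2674 to 3492 CPM in Tcf1-deficient libraries, with 2 of 11 tested members called lower in p45-deficient cells. The 8 double-positive thymocyte markers summed to between 1000.1 and 1169.6 CPM in every library, and 1 was called lower in p45-deficient cells. The part of these marker differences in the values of the replication genes was not tested.

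Promoters of the replication genes were searched for the recognition sequence of E2F factors, named above as regulators of many of these genes. RefSeq promoters (build GRCm38.p6) were matched by symbol for 47 of the 56 genes; Gins1, Gins2, Gins4, Gmnn, Mcm4, Rfc2, Pole, Prim2 and Ccne2 were not matched. The 4 words TTTCCCGC, TTTGGCGC, TTTCGCGC and TTTGCCGC were searched on both strands in the 250 bases before the start. At least 1 word was found for 10 of the 47 genes (21.3%), against 2.16% of all 27025 symbols with a promoter. Those symbols were not limited to tested genes or matched to the 47 genes for base content. With the 50 bases after the start included, the shares were 36.2% (17 of 47) and 2.60%. Of matched genes called higher in p45-deficient cells 3 of 20 held a word (15%), beside 7 of 27 genes not called (25.9%). In the longer window these were 4 of 20 and 13 of 27. The short word CCAAT, contained in none of these 4 but able to share a T with the first bases of one, was found before the start for 57.4% of the 47 genes and 37.5% of all symbols. A match of letters is a description and not a binding site, and no match says only that the letters are missing from this window. The 10 genes with a word before the start were Gins3, Cdc6 and Pola1, which rose, and Orc1, Orc3, Mcm5, Mcm6, Mcm7, Rfc3 and Uhrf1, which were not called. Shown are the 3 that rose and, as 1 example of the other 7, Uhrf1, the gene with both p45-deficient libraries below both controls. Each is printed 5′ to 3′ on the gene's strand with the word in capitals. The window of Gins3 is chr8:95633309-95633558 (+ strand), with the word 41 to 34 bases before the start; that of Cdc6 is chr11:98907901-98908150 (+ strand), with the word 138 to 131 bases before the start; that of Pola1 is chrX:93632156-93632405 (- strand), with the word 138 to 131 bases before the start; and that of Uhrf1 is chr17:56304063-56304312 (+ strand), with the word 185 to 178 bases before the start.
Gins3: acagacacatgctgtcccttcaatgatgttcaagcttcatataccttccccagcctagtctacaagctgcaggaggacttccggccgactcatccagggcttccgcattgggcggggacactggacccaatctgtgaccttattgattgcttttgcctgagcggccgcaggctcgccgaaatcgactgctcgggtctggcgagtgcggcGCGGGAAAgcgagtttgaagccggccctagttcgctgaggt
Cdc6: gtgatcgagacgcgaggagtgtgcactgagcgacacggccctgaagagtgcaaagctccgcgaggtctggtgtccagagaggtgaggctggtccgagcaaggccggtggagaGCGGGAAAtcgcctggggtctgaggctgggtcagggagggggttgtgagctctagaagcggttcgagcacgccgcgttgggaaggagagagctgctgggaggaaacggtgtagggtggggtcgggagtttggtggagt
Pola1: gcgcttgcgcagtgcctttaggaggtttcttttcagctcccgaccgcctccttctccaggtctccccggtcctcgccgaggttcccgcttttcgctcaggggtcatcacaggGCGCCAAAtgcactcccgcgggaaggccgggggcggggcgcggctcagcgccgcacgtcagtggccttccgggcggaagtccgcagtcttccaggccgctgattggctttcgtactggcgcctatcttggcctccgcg
Uhrf1: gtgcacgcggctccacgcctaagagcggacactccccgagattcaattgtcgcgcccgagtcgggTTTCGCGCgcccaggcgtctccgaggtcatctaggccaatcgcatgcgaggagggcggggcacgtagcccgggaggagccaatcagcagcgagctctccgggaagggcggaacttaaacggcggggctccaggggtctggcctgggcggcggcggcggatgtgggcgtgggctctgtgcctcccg

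Among the 9 licensing genes, 3 rose and none fell in p45-deficient cells. Gmnn, which encodes geminin, the protein that binds Cdt1 and prevents a second round of licensing, stood at 53.1 and 51.5 CPM in control, 121 and 123 CPM in p45-deficient and 62.2 and 66.5 CPM in Tcf1-deficient libraries. The 3 groups did not overlap, and the p45-deficient libraries were far above the rest (log2 fold change 1.22, SE 0.11, adjusted p = 0.00213). Cdt1, its target, stood at 146 and 118 CPM in control, 121 and 146 CPM in p45-deficient and 139 and 134 CPM in Tcf1-deficient libraries, with all groups overlapping. Cdt1 protein is removed by degradation once replication starts, and transcript counts do not measure that step.

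Orc6, the smallest subunit of the origin recognition complex, stood at 35.9 and 40.9 CPM in control, 79.5 and 69.4 CPM in p45-deficient and 34.0 and 46.6 CPM in Tcf1-deficient libraries. It rose 1.94-fold (SE of the log2 fold change 0.18, adjusted p = 0.0159) and was the only 1 of the 6 subunits called. Orc5 stood at 17.9 and 18.2 CPM in control, 28.01 and 24.7 CPM in p45-deficient and 17.4 and 20.2 CPM in Tcf1-deficient libraries, which left it above both controls but short of the threshold (adjusted p = 0.0648). Orc1, the largest subunit, stood at 22.9 and 16.6, 31.2 and 30.8, and 18.8 and 24.2 CPM in that order (1.57-fold, adjusted p = 0.0734). Over all 6 subunits the log2 fold change ran from 0.212 for Orc4 to 0.955 for Orc6. Cdc6, the ATPase that joins the complex to recruit the ring, stood at 91.8 and 79.4 CPM in control, 129.6 and 135 CPM in p45-deficient and 83.2 and 96.4 CPM in Tcf1-deficient libraries, a 1.55-fold rise (adjusted p = 0.023) with the p45-deficient libraries above all others.

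Of the 12 helicase genes 5 rose, namely Gins1, Gins2, Gins3, Mcm10 and Cdc45, which encode factors that join or activate the ring when an origin fires. None of the 6 ring subunits Mcm2 to Mcm7 passed, although both p45-deficient libraries exceeded both controls for all 6. Their log2 fold changes lay between 0.157 and 0.414, and their adjusted p between 0.0749 and 0.498. Whether the ring subunits differ in response from the other helicase genes was not tested. Mcm6 stood at 605 and 592 CPM in control, 726 and 814 CPM in p45-deficient and 533 and 656 CPM in Tcf1-deficient libraries (1.29-fold, adjusted p = 0.106). Under library totals or upper-quartile factors 3 of the 12 helicase genes were called. With Tcf1-deficient replicate 1 omitted the calls took in Mcm4 and Mcm6, and with replicate 2 omitted Mcm3, Mcm4, Mcm5 and Mcm6.

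Gins1 stood at 26.7 and 25.6 CPM in control, 50.9 and 54.9 CPM in p45-deficient and 24.4 and 30.2 CPM in Tcf1-deficient libraries (2.02-fold higher in p45-deficient cells, SE of the log2 fold change 0.15, adjusted p = 0.00813). Gins3 stood at 17.2 and 18.1, 32.7 and 33.4, and 20.8 and 22.4 CPM in the same order (1.88-fold, adjusted p = 0.0101). Gins2 stood at 35.7 and 28.8, 57.8 and 61.4, and 34.7 and 39.95 CPM (1.85-fold, adjusted p = 0.0126). For these 3 genes the p45-deficient libraries lay above the other 4 with no overlap. The fourth GINS gene, Gins4, went from 52.7 and 51.4 CPM to 66.2 and 69.9 CPM (1.31-fold, adjusted p = 0.0602). Whether the folds of the 4 subunits differ from each other was not tested.

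Mcm10, a scaffold that helps start unwinding, stood at 74.4 and 58.9 CPM in control, 96.7 and 113 CPM in p45-deficient and 61.9 and 76.5 CPM in Tcf1-deficient libraries (1.57-fold, adjusted p = 0.0416). Cdc45 stood at 65.8 and 57.5, 89.6 and 100.2, and 48.9 and 64.1 CPM in that order (1.54-fold, adjusted p = 0.0424). For comparison Mcm2, a ring subunit described after its values were seen, stood at 553 and 505 CPM in control, 563 and 617 CPM in p45-deficient and 441 and 571 CPM in Tcf1-deficient libraries, a 1.11-fold difference. The lower p45-deficient library exceeded the higher control by less than the 2 controls differed from each other.

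**Figure D3:**
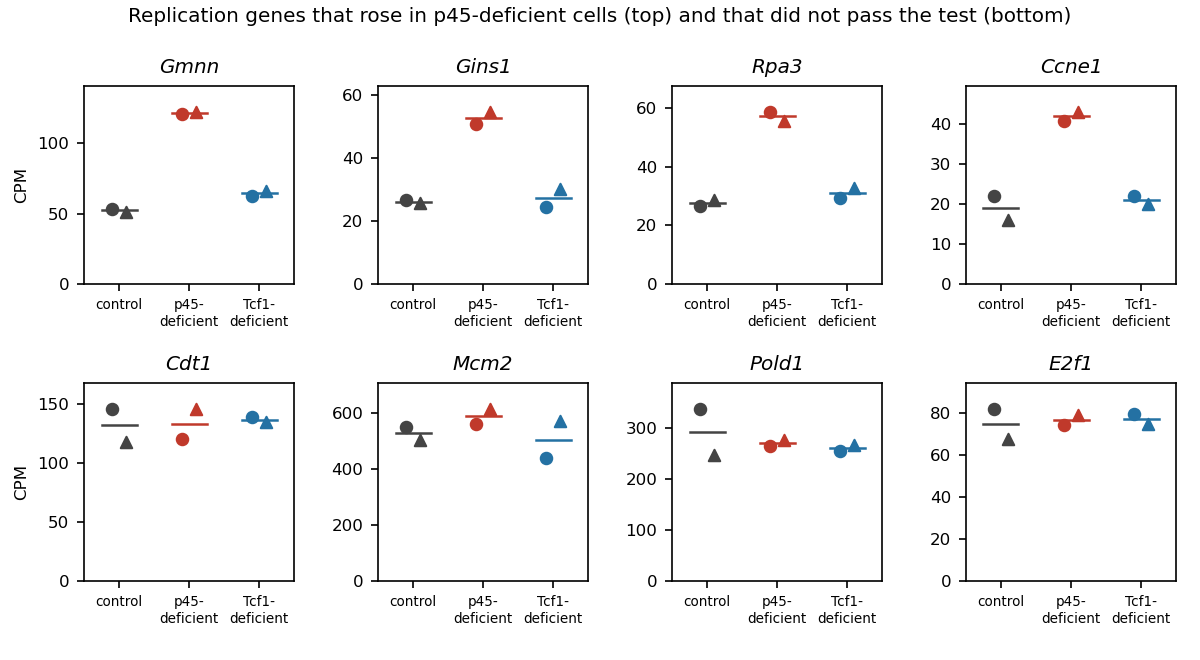
Each panel gives the CPM of 1 gene in the 6 libraries (circle replicate 1, triangle replicate 2, line the group mean; each vertical axis starts at 0). Gmnn, Gins1, Rpa3 and Ccne1 (top) rose between 2.02-fold and 2.33-fold in p45-deficient cells, while Cdt1, Mcm2, Pold1 and E2f1 (bottom), chosen after their values were seen, stayed within a factor of 1.11 of control.

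Of the kinase that fires origins, the regulatory subunit passed and the catalytic subunit did not. Dbf4 stood at 43.7 and 49.7 CPM in control, 82.2 and 87.1 CPM in p45-deficient and 45.9 and 60.7 CPM in Tcf1-deficient libraries, a 1.81-fold rise (adjusted p = 0.0163). Cdc7 stood at 59.8 and 56.4, 79.5 and 86.98, and 47.6 and 71.0 CPM in that order (1.43-fold, adjusted p = 0.104). Both p45-deficient libraries were above all others for each gene. The difference between the folds of these subunits was not tested.

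Of the 9 polymerase genes 3 rose, and differences in fold among the 9 were not tested. Pole2, the second subunit of the leading-strand polymerase epsilon, stood at 20.9 and 18.2 CPM in control, 32.7 and 36.6 CPM in p45-deficient and 20.05 and 24.2 CPM in Tcf1-deficient libraries (1.77-fold, adjusted p = 0.0217). Its catalytic partner Pole reached 1.11-fold (adjusted p = 0.527). Prim1, the catalytic subunit of primase, stood at 61.0 and 66.0, 119 and 120.3, and 44.9 and 79.0 CPM (1.88-fold, adjusted p = 0.0474). Pola1, the catalytic subunit of polymerase alpha, stood at 110.03 and 100.5, 155 and 166, and 86.95 and 116 CPM (1.52-fold, adjusted p = 0.0402). For all 3 genes that rose the p45-deficient libraries were above every other library. The other two genes of that complex, Pola2 and Prim2, reached 1.09-fold and 1.17-fold and were not called. In polymerase delta, which copies the lagging strand, none of 3 subunits passed. Pold3 stood at 82.9 and 85.8 CPM in control, 114 and 116 CPM in p45-deficient and 70.8 and 94.3 CPM in Tcf1-deficient libraries (1.36-fold, adjusted p = 0.0855), whereas the catalytic subunit gene Pold1 stood at 338 and 246, 264 and 277, and 255 and 266 CPM, with the p45-deficient values between the 2 controls. Only Pole2 of the 9 was called under library totals or upper-quartile factors.

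**Figure D4:**
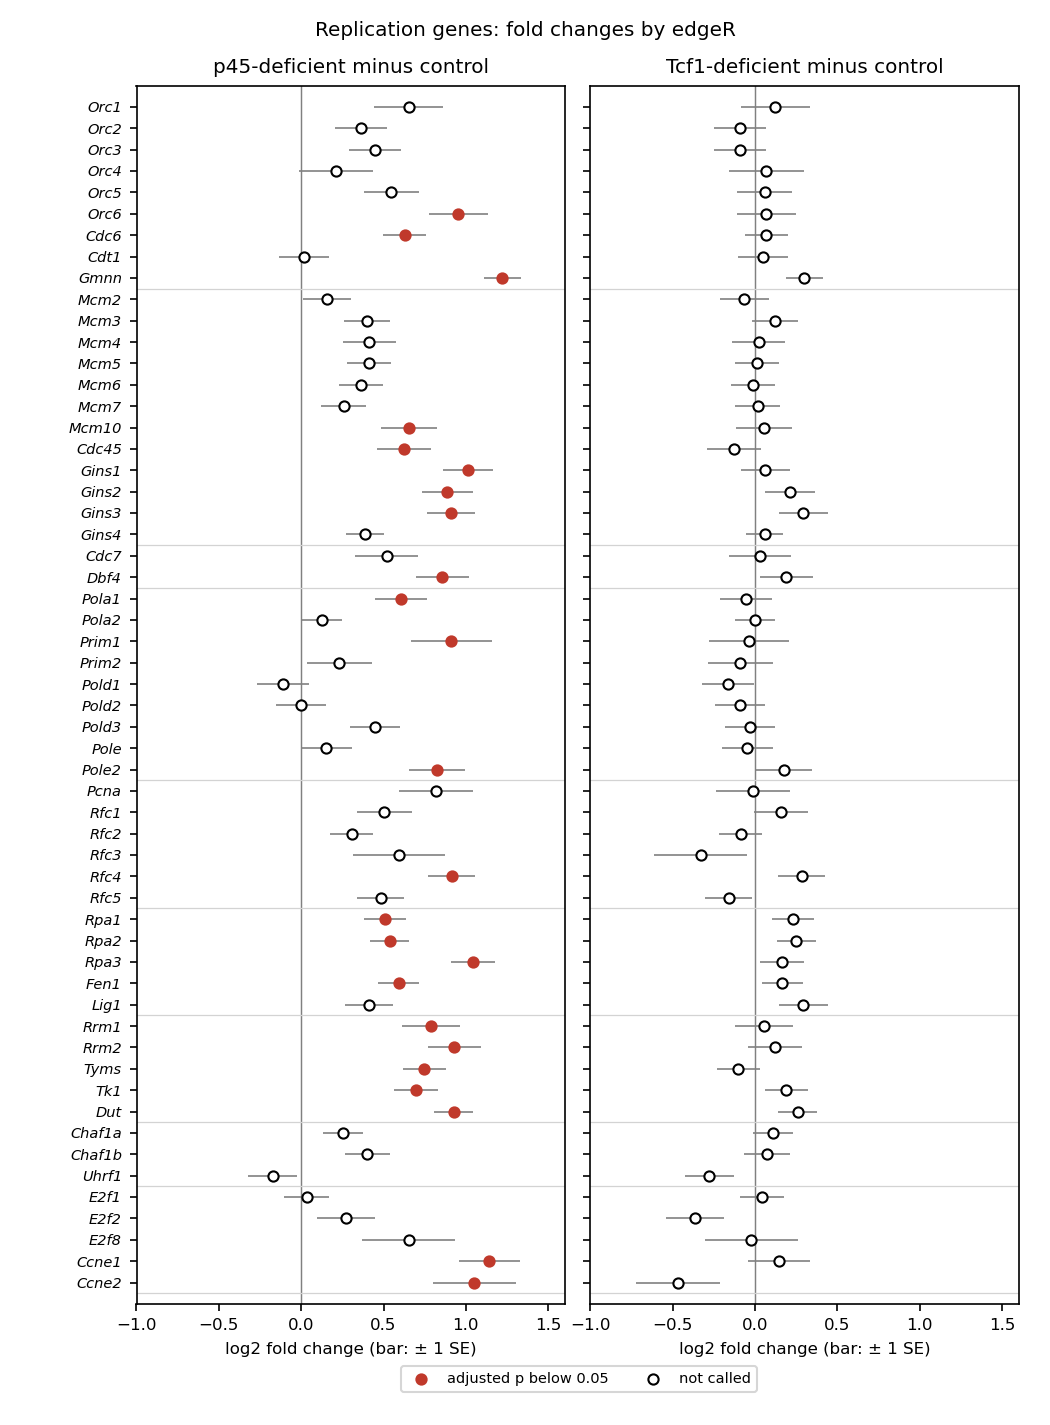
Points give the log2 fold change of each replication gene against control and bars its SE by edgeR, for p45-deficient cells (left) and Tcf1-deficient cells (right), with filled red points for an adjusted p below 0.05. On the left 24 genes are filled, all to the right of 0, and on the right none is filled, with values between −0.47 and 0.30.

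Of the clamp and its loaders, 1 of 6 rose. Rfc4, a loader subunit, stood at 37.8 and 36.0 CPM in control, 62.2 and 77.1 CPM in p45-deficient and 44.2 and 45.8 CPM in Tcf1-deficient libraries (1.89-fold, adjusted p = 0.00915). Pcna, the clamp that holds polymerases on DNA, stood at 543 and 539 CPM in control, 966 and 943 CPM in p45-deficient and 399 and 673 CPM in Tcf1-deficient libraries. Its 1.77-fold difference did not pass (adjusted p = 0.0507), although the p45-deficient libraries were far above all others. It was called when either Tcf1-deficient library was omitted. Rfc5 stood at 77.5 and 69.8, 100.3 and 106, and 58.7 and 73.0 CPM (1.40-fold, adjusted p = 0.0589), with all other libraries below the p45-deficient ones. Rfc1 stood at 153 and 167, 220.3 and 233, and 149.6 and 207 CPM (log2 fold change 0.51, adjusted p = 0.0772). Rfc3 stood at 52.6 and 57.1, 88.2 and 77.2, and 29.9 and 57.3 CPM (log2 fold change 0.59, adjusted p = 0.19). For all 6 genes both p45-deficient libraries exceeded both controls. DESeq2 called 3 of the 6, adding Pcna and Rfc5.

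Of the genes for single-strand binding and lagging-strand processing 4 of 5 rose. All 3 subunits of RPA, the trimer that coats unwound DNA, were among them. Rpa3 stood at 26.7 and 28.7 CPM in control, 58.8 and 55.6 CPM in p45-deficient and 29.4 and 32.8 CPM in Tcf1-deficient libraries (2.06-fold, SE of the log2 fold change 0.13, adjusted p = 0.00517). Rpa2 stood at 91.7 and 95.5, 127 and 145, and 113 and 109.8 CPM (1.45-fold, adjusted p = 0.0264). Rpa1 stood at 194 and 202, 266 and 299, and 249.7 and 215 CPM (1.43-fold, adjusted p = 0.0366). For each subunit the Tcf1-deficient libraries lay between the controls and the p45-deficient libraries. Fen1, the nuclease that trims the flaps of Okazaki fragments, stood at 127 and 115 CPM in control, 171 and 194 CPM in p45-deficient and 142 and 129.9 CPM in Tcf1-deficient libraries (1.51-fold, adjusted p = 0.0236). Lig1, the ligase that seals them, stood at 264 and 222, 289 and 358, and 289 and 306 CPM (1.33-fold, adjusted p = 0.0994), with the Tcf1-deficient libraries also above both controls.

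Nucleotide supply was the role in which every gene passed, 5 of 5. Dut, which hydrolyses dUTP and so keeps uracil out of DNA, stood at 219 and 194 CPM in control, 379.7 and 405 CPM in p45-deficient and 254 and 240.5 CPM in Tcf1-deficient libraries (1.90-fold, SE of the log2 fold change 0.12, adjusted p = 0.00518). Rrm2, the regulated subunit of ribonucleotide reductase, stood at 241 and 209, 407 and 449, and 210.5 and 278 CPM (1.91-fold, adjusted p = 0.0129). Its partner Rrm1 stood at 308 and 311, 508 and 561, and 263 and 379.8 CPM (1.73-fold, adjusted p = 0.0275). Both subunit genes had p45-deficient values above all others. Tyms, which makes thymidylate, stood at 77.9 and 70.9, 125 and 124, and 63.0 and 75.7 CPM (1.68-fold, adjusted p = 0.0131). Tk1, which salvages thymidine, stood at 94.6 and 80.1, 132 and 152, and 98.7 and 101 CPM (1.62-fold, adjusted p = 0.0166). The same held for Dut, Tyms and Tk1. All 5 were also called with DESeq2, library totals and upper-quartile factors.

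Of the chromatin genes none of 3 passed. Chaf1b, a subunit of the histone chaperone that follows the fork, stood at 75.9 and 71.0 CPM in control, 93.7 and 100.3 CPM in p45-deficient and 69.0 and 85.3 CPM in Tcf1-deficient libraries (adjusted p = 0.0882). Its partner Chaf1a stood at 141 and 123, 151 and 164, and 143 and 141 CPM (adjusted p = 0.187). Uhrf1, which recruits the maintenance DNA methyltransferase, was the 1 gene of the 56 with both p45-deficient libraries below both controls, at 1128 and 969 CPM in control, 891 and 968 CPM in p45-deficient and 759.6 and 970.5 CPM in Tcf1-deficient libraries (log2 fold change −0.17, SE 0.15, adjusted p = 0.453). The gap between the nearest p45-deficient and control libraries was far smaller than the gap between the controls.

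Both cyclin E genes rose while none of the 3 E2F genes passed, and the difference between their folds was not tested. Ccne1 stood at 21.9 and 16.03 CPM in control, 40.7 and 43.1 CPM in p45-deficient and 22.1 and 19.9 CPM in Tcf1-deficient libraries (log2 fold change 1.14, SE 0.19, adjusted p = 0.0103). Ccne2 stood at 14.0 and 15.4, 32.3 and 28.5, and 7.96 and 13.2 CPM (log2 fold change 1.05, SE 0.25, adjusted p = 0.033), and its Tcf1-deficient libraries were the lowest. E2f8, a repressor of the family that is itself made in S phase, stood at 70.4 and 54.0 CPM in control, 95.3 and 100.3 CPM in p45-deficient and 42.9 and 79.5 CPM in Tcf1-deficient libraries (1.57-fold, adjusted p = 0.16). The activator E2f2 stood at 181 and 126, 177 and 193, and 117 and 122 CPM (adjusted p = 0.314), with the lowest values in Tcf1-deficient cells. E2f1 stood at 81.8 and 67.4, 73.9 and 78.7, and 79.1 and 74.7 CPM. The control libraries spanned the p45-deficient values of E2f1.

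In Tcf1-deficient cells none of the 56 replication genes was called against control, nor was any of the 12939 tested genes (0% higher and 0% lower by edgeR). At an unadjusted p below 0.05 by edgeR, 1 replication gene was higher, Gmnn (log2 fold change 0.30, adjusted p = 0.613), and none lower, beside 4.3% and 3.61% of all tested genes. DESeq2 called no replication gene, though 79 and 66 genes over all. The median log2 fold change over the 56 genes was 0.0517, beside 0.00713 over all tested genes, and single values ran from −0.47 (Ccne2, SE 0.25) to 0.30 (Gmnn, SE 0.11). Both Tcf1-deficient libraries exceeded both controls for 12 of the 56 genes, beside 16.4% of all tested genes, and lay below both for 2, E2f2 and Ccne2, beside 18% of all tested genes. The 12 include all 5 genes of single-strand binding and lagging-strand processing, a role singled out here after its values were seen. Their log2 fold changes ran from 0.17 for Rpa3 to 0.29 for Lig1, with an adjusted p of at least 0.644 by edgeR.

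The 2 Tcf1-deficient libraries differed from each other on these genes. Replicate 2 exceeded replicate 1 for 46 of the 56 genes, by a median of 0.267 on the log2 scale, and replicate 1 was the lowest of all 6 libraries for 28 genes. The corresponding median gaps, replicate 2 minus replicate 1, were −0.131 in control and 0.105 in p45-deficient cells. Without replicate 2 the median log2 fold change of the replication genes against control turned to −0.104. Without replicate 1 the median was 0.168. Replicate 1 is also the library with the higher Cd4, Cd44 and natural killer gene levels given above, and their part in these values was not tested.

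Set directly against p45-deficient cells, Tcf1-deficient cells had 18 of the 56 replication genes lower and none higher, where 5.36% of all tested genes were lower and 5.05% higher. The median log2 fold change was −0.499, beside −0.013 over all tested genes. This comparison and the comparison of p45-deficient cells with control use the same p45-deficient libraries, so they are not independent of each other. Both Tcf1-deficient libraries lay below both p45-deficient libraries for 46 of the 56 genes, beside 33.3% of all tested genes. None was higher at an unadjusted p below 0.05 or by DESeq2, which called 27 lower.

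By role, the genes called lower in Tcf1-deficient than in p45-deficient cells were 3 of 9 for licensing, 4 of 12 for the helicase, 1 of 2 for the firing kinase, 1 of 9 for the polymerases, 2 of 6 for clamp and loader, 1 of 5 for single-strand binding and lagging-strand processing, 4 of 5 for nucleotide supply, none of 3 for chromatin and 2 of 5 for E2F and cyclin E genes. The lowest adjusted p belonged to Gmnn (1.89-fold lower, adjusted p = 0.00685), followed by Rpa3 (1.84-fold, adjusted p = 0.0128) and Tyms (1.80-fold, adjusted p = 0.0136). Ccne2 had the largest difference (log2 fold change −1.52, SE 0.26, adjusted p = 0.0171), with 7.96 and 13.2 CPM against 32.3 and 28.5 CPM. Gins1 (1.94-fold, adjusted p = 0.0147), Dut (1.59-fold, adjusted p = 0.0196), Ccne1 (2.00-fold, adjusted p = 0.022), Rrm2 (1.75-fold, adjusted p = 0.0272) and Orc6 (1.85-fold, adjusted p = 0.0276) were lower too. So were Cdc45, Rfc5, Rfc4, Gins2, Cdc6, Gins3, Pola1, Rrm1 and Dbf4, with adjusted p from 0.0344 to 0.0439. Leaving out single libraries moved the number of calls, over all tested genes as well as over these. The count of 18 became 7 when either control library was omitted and 0 when either p45-deficient library was. Omitting Tcf1-deficient replicate 1 gave 11, and omitting its replicate 2 gave 39.

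Further genes of the same processes were counted from lists by function, also chosen with earlier results of these data known. Of 33 further replisome genes 8 rose and none fell in p45-deficient cells (median log2 fold change 0.346). They include Top2a, which untangles replicated DNA (1.97-fold, adjusted p = 0.00627), 2810417H13Rik, the older symbol of the clamp-binding factor Pclaf (2.37-fold, adjusted p = 0.0184), Rnaseh2b, a subunit of the enzyme that removes ribonucleotides from DNA (1.76-fold, adjusted p = 0.0226), and the ubiquitin ligase gene Rfwd3 (1.52-fold, adjusted p = 0.0301). Of 13 further genes of chromatin replication 7 rose and none fell (median 0.552), among them the histone chaperone gene Asf1b (2.06-fold, adjusted p = 0.0062), the histone mRNA binding gene Slbp (1.70-fold, adjusted p = 0.00728), Nasp (1.64-fold, adjusted p = 0.0102) and Hells (1.98-fold, adjusted p = 0.0119). With a single library left out the counts ran from 0 to 16 and from 0 to 9, lowest where the omitted library was control or p45-deficient. Library totals left 4 higher in each list.

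Of 25 further genes of nucleotide metabolism 5 rose and 1 fell (median 0.252). Mthfd2, a mitochondrial one-carbon enzyme, rose 1.76-fold (adjusted p = 0.00956), Atic, of purine synthesis, 1.39-fold (adjusted p = 0.0325) and Nudt1, which clears oxidised nucleotides, by 0.68 on the log2 scale (adjusted p = 0.0316), while Dctd, which deaminates dCMP, fell 2.13-fold (adjusted p = 0.0335). This split became 1 higher and 2 lower with library totals and 2 and 1 with upper-quartile factors, and 0 to 8 higher and 0 to 2 lower with a library left out. Of 20 further E2F, Rb and CDK2 genes 7 rose and none fell (median 0.515). E2f7, the partner of E2f8 in repressing E2F targets, had the largest rise in this list, from 8.41 and 8.32 CPM to 32.6 and 39.5 CPM (4.31-fold, adjusted p = 0.00453), with 5.54 and 8.91 CPM in Tcf1-deficient libraries. Fbxo5, an inhibitor of the anaphase-promoting complex, rose 2.20-fold (adjusted p = 0.0117), Ccna2, the S phase cyclin, 2.02-fold (adjusted p = 0.0134) and Cks1b 1.87-fold (adjusted p = 0.0101). This count ran from 1 to 12 with a library left out.

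Of 29 checkpoint and repair genes 8 rose and none fell (median 0.487), among them Fanci, of the pathway that repairs crosslinked DNA (1.80-fold, adjusted p = 0.0132), and the helicase gene Brip1 (1.81-fold, adjusted p = 0.0137). Of 36 mitosis genes 30 rose and none fell, with a median log2 fold change of 1.04. Cenpa rose 2.42-fold, Birc5 2.37-fold, Anln 2.56-fold and Ndc80 3.03-fold (adjusted p from 0.00217 to 0.00323). The difference between this median and the 0.528 of the replication genes was not tested. With a library left out the checkpoint and repair count ran from 0 to 16 and the mitosis count from 7 to 35. Library totals left 4 checkpoint and repair genes and 28 mitosis genes higher.

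Among 14 tested G1 genes upstream of E2F (D cyclin, CDK, CDK inhibitor and Myc family genes) 1 rose and 2 fell (median −0.0942), beside 8.47% and 7.55% of all tested genes. Ccnd2, a D cyclin, stood at 390.1 and 518 CPM in control, 237 and 187 CPM in p45-deficient and 529 and 469 CPM in Tcf1-deficient libraries (log2 fold change −1.10, adjusted p = 0.0105). Cdk6, a kinase that D cyclins activate, stood at 392.5 and 376, 158 and 166, and 227 and 339 CPM (log2 fold change −1.24, adjusted p = 0.00851). Cdkn2c, an inhibitor of that kinase, rose from 14.9 and 15.2 CPM to 37.6 and 33.5 CPM (2.36-fold, adjusted p = 0.00517). Ccnd1 was low in every library, at 2.35 to 4.79 CPM, and was not called (adjusted p = 0.131). With a library left out 0 or 1 of these genes rose and 0 to 3 fell.

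**Figure D5:**
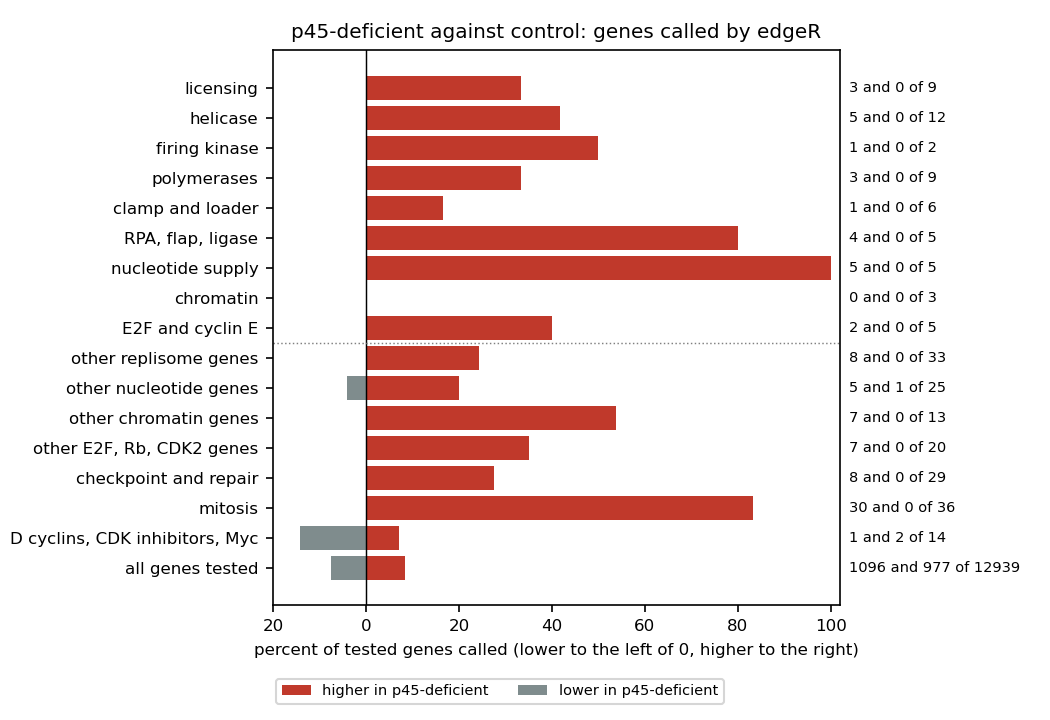
Bars give the percent of tested genes in each list called higher (red, right of 0) or lower (grey, left of 0) in p45-deficient cells against control, with the counts at the right. Nucleotide supply (5 of 5) and mitosis genes (30 of 36) have the largest shares, while the D cyclin, CDK inhibitor and Myc list has 1 of 14 higher and 2 of 14 lower, beside 8.47% and 7.55% of all genes tested.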

How the data were processed

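The deposited files hold, for each of 6 libraries, whole-number read counts for 24015 gene symbols, not normalised, as the authors counted them. The tools named per the submitters' processing notes are TopHat2, featureCounts 1.5.0-p3 and DESeq2 3.4, with build mm9; the annotation and the strand setting of the counting are not stated there, so overlapping or antisense genes may share reads. The genotype label of each library set its group. Counts were filtered with filterByExpr, scaled with TMM and fitted with edgeR 4.0.16 in R 4.3.3, with 1 mean per group over all 6 libraries (3 residual degrees of freedom) and robust quasi-likelihood dispersions. Each comparison was tested two-sided with Benjamini-Hochberg adjustment over all 12939 genes at 0.05. SEs come from the F statistic, and CPM use TMM-scaled totals. With 2 libraries a group, an exact permutation test of 1 gene cannot go below p = 0.333 and was not used. Replicates of a genotype differed beyond counting noise (chi-square per degree of freedom 9.79 to 73.1), so none was treated as the same library deposited again. This does not show that they came from separate mice.

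The members and gene lists were chosen with earlier results of these data known. Per role, the up to 4 genes with the smallest p for p45-deficient against control, and genes called lower in Tcf1-deficient than in p45-deficient cells among the 3 smallest p, are described by library, and of the other lists up to 4 are named. All other genes described, such as Cdt1, E2f1, Mcm2 and Pold1, and the grouping by complex were chosen after their values were seen. Promoter sequences are those of RefSeq on GRCm38.p6, another build than that of the counts. The test was run on simulated data with 200 changed genes. For p45-deficient against control the share recovered was 7.46% for 1.5-fold changes, 53.7% for 2-fold and 86.4% for 4-fold, with 10 false calls among 12727 genes. The real comparison called 1096 genes higher and 977 lower, so the adjustment was stricter in the simulation. These shares may not hold for the replication genes. DESeq2 1.42.0, other scalings and filters, a replicate block and leaving out each library were tried as alternatives.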

Additional observations from a re-analysis of the deposited data

How the results depend on the processing

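Each group had 2 libraries, with 3 residual degrees of freedom in the fit, so a replication gene that was not called may still differ. Few 1.5-fold changes were recovered in simulated data, which held fewer changed genes than were called here. For p45-deficient against control, the count of replication genes higher was 24, became 38 when only the 2 groups compared were fitted, and ran from 2 to 41 with 1 library left out. None was lower in any of the 13 alternatives. The median log2 fold change of 0.528 became 0.421 with library totals and 0.451 with upper-quartile scaling, and ran from 0.453 to 0.576 with 1 library left out. For Tcf1-deficient against control, 0 replication genes were higher in any alternative, and 0 to 3 lower and a median of −0.104 to 0.168 were found with 1 library left out. For Tcf1-deficient against p45-deficient cells, the 18 genes lower became 10 with library totals and 4 with only the 2 groups compared, and ran from 0 to 39 with 1 library left out, with a median from −0.669 to −0.318. The fold change of E2f2 against control in p45-deficient cells ran from −0.02 (without control replicate 2) to 0.509 (without control replicate 1). The cause of these shifts was not tested.

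With the replicate number as a block the counts were 20 higher in p45-deficient cells than in control, 0 in Tcf1-deficient cells, and 13 lower in Tcf1-deficient than in p45-deficient cells, with medians of 0.524, 0.0478 and −0.507. The labels do not say that a number marks a shared litter or day. The differences between replicates had correlations between groups, over genes, from −0.05 to −0.014. With only 2 libraries a group, these values cannot show whether same-numbered libraries share a litter or day. Over all genes, p45-deficient against control gave 1096 higher and 977 lower. DESeq2 gave 1634 lower, library totals 721 higher, the 2 groups alone 1911 and 1996, and single omissions 117 to 2226 higher and 141 to 1990 lower. Tcf1-deficient against control gave 0, against 79 higher and 66 lower by DESeq2, 20 and 13 with no filter, and up to 669 and 225 in single omissions. Tcf1-deficient against p45-deficient gave 654 higher and 694 lower, against 1375 and 1176 by DESeq2, 293 and 195 with the 2 groups alone, 454 lower with the block, and 53 to 1647 higher and 52 to 1790 lower in single omissions.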
